A study of Mus musculus with 6 samples.

Results

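The drug efflux transporters of the adenosine triphosphate binding cassette (ABC) superfamily were examined in cells of isolated mouse brain microvessels. The 7 genes were chosen by name (Abcb1a, Abcb1b, Abcg2, Abcc1, Abcc4, Abcc5 and Abcc6), and each matched 1 of the 32287 genes in the deposited matrices. Libraries came from 3 wild type (WT) C57BL/6J mice and 3 ArcSwe mice (genotype label AppArcSwe), which carry a transgenic human App with the Arctic and Swedish mutations and serve as a model of Alzheimer's disease. All 6 mice were untreated 12-month-old males, and each gave 1 library from 1 cerebral hemisphere. The promoter of the transgene was not given in the sources used here, and the transgene was not among the counted genes, so the genotype labels were not checked against it.

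ABC transporters use adenosine triphosphate to move substrates across membranes. In brain endothelial cells, P-glycoprotein and breast cancer resistance protein sit in the membrane facing the blood and return many drugs to it, which makes them part of the blood-brain barrier (BBB). Rodents carry a pair of P-glycoprotein genes, Abcb1a and Abcb1b, and P-glycoprotein is also known as a carrier of amyloid-β. Abcg2 encodes breast cancer resistance protein. Abcc1, Abcc4 and Abcc5 encode multidrug resistance-associated proteins that export organic anions, conjugates and cyclic nucleotides. Abcc6 belongs to the same subfamily and is known for the release of adenosine triphosphate and for pseudoxanthoma elasticum, the calcification disorder caused by its loss.

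Microvessels had been pulled down with CD31 magnetic beads, dissociated and sequenced from the 3′ end of transcripts. After filters on genes and mitochondrial reads, 44112 of 49059 cells remained, from 2379 to 13389 per mouse. Libraries held 26436229 to 59161203 unique molecular identifiers (UMIs), the count of distinct captured transcripts, and the median per cell ranged from 2922 to 5542. Pairs of libraries shared 4 to 42 cell barcodes, 283 barcodes in all. Clusters were named from marker genes that included none of the 7 transporters, and no transporter was used for clustering. BBB-forming endothelial cells ("barrier" cells, 23854 after 5340 of 29194 with a UMI of the microglial genes Cx3cr1 or Aif1 were left out) were split along the arteriovenous axis into large arterial (573), arteriolar (2034), arteriolar to capillary (7742), capillary (11318), capillary to venous (1221) and venous (966) cells. The other classes were fenestrated endothelial cells (845), pericytes (354, 15 to 173 per mouse), smooth muscle cells (3287) and microglia (6586). A capillary cluster of 2120 cells held 1501 cells of 1 library, ArcSwe replicate 3. Levels below are CPM, the UMIs of a gene in the summed cells of a class and mouse, scaled to the same total in every sum. They are not scaled to transcript length and were therefore compared mainly within a gene. The exceptions, such as the share of Abcb1b among the UMIs of both P-glycoprotein genes, set counts of different genes side by side.

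Abcb1a and Abcb1b lie side by side on chromosome 5 (GRCm38, both on the plus strand), at chr5:8660077-8748575 and chr5:8798147-8866315, with 49571 bases between them. Both coding sequences are 3831 bases long, and 3367 of 3822 aligned bases were identical (88.1%). The ends of the coding sequences, from the GENCODE transcripts, are shown because they are identical through the stop codon but for 1 stretch. The 6 bases of that stretch, in capitals, have no counterpart in Abcb1b.
Abcb1a: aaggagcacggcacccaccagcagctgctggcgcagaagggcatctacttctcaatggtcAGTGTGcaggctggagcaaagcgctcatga
Abcb1b: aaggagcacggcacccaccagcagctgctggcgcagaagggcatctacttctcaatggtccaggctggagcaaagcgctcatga

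Reads from such stretches cannot be assigned to 1 of the genes, so their values carry that uncertainty. The 3′ ends, where this assay reads, differed more. In the last 500 bases of the transcript, 0 of 441 windows of 60 bases of Abcb1a occurred in Abcb1b, and 4 of 441 windows of Abcb1b occurred in Abcb1a. Over the whole Abcb1a transcript 645 of 4938 windows did. The remaining genes lie at chr6:58584523-58695676 (Abcg2, plus strand), chr16:14361558-14475737 (Abcc1, plus strand), chr14:118482692-118706219 (Abcc4, minus strand), chr16:20331303-20426394 (Abcc5, minus strand) and chr7:45967555-46030302 (Abcc6, minus strand). Annotated genes overlap Abcb1a (Gm42684 on its strand), Abcb1b (7330423F06Rik), Abcc1 (Gm23116) and Abcc4 (Mir6391), and reads in the shared stretches could belong to either gene.

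Abcb1a, Abcg2 and Abcc6 were highest in capillaries, and Abcc4 in capillary and venous cells. Each was lower towards the arteries, whereas Abcb1b and Abcc1 were higher in arterial and venous cells than in capillaries. Abcc5 was highest in microglia and pericytes. Between capillary and large arterial cells 6 of the 7 transporters differed at an adjusted p under 0.05 (edgeR's quasi-likelihood test within mice, Benjamini-Hochberg over all genes, as in every class comparison below), where 42.1% of all tested genes did. Of the 6, 4 were higher in capillaries (20.6% of all genes) and 2 lower (21.5%). Between capillary and arteriolar cells 7 of 7 differed (51.2% of all genes), and between capillary and venous cells 4 of 7 (34% of all genes). With so many genes differing between zones, these counts alone do not set the transporters apart.

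**Figure D1:**
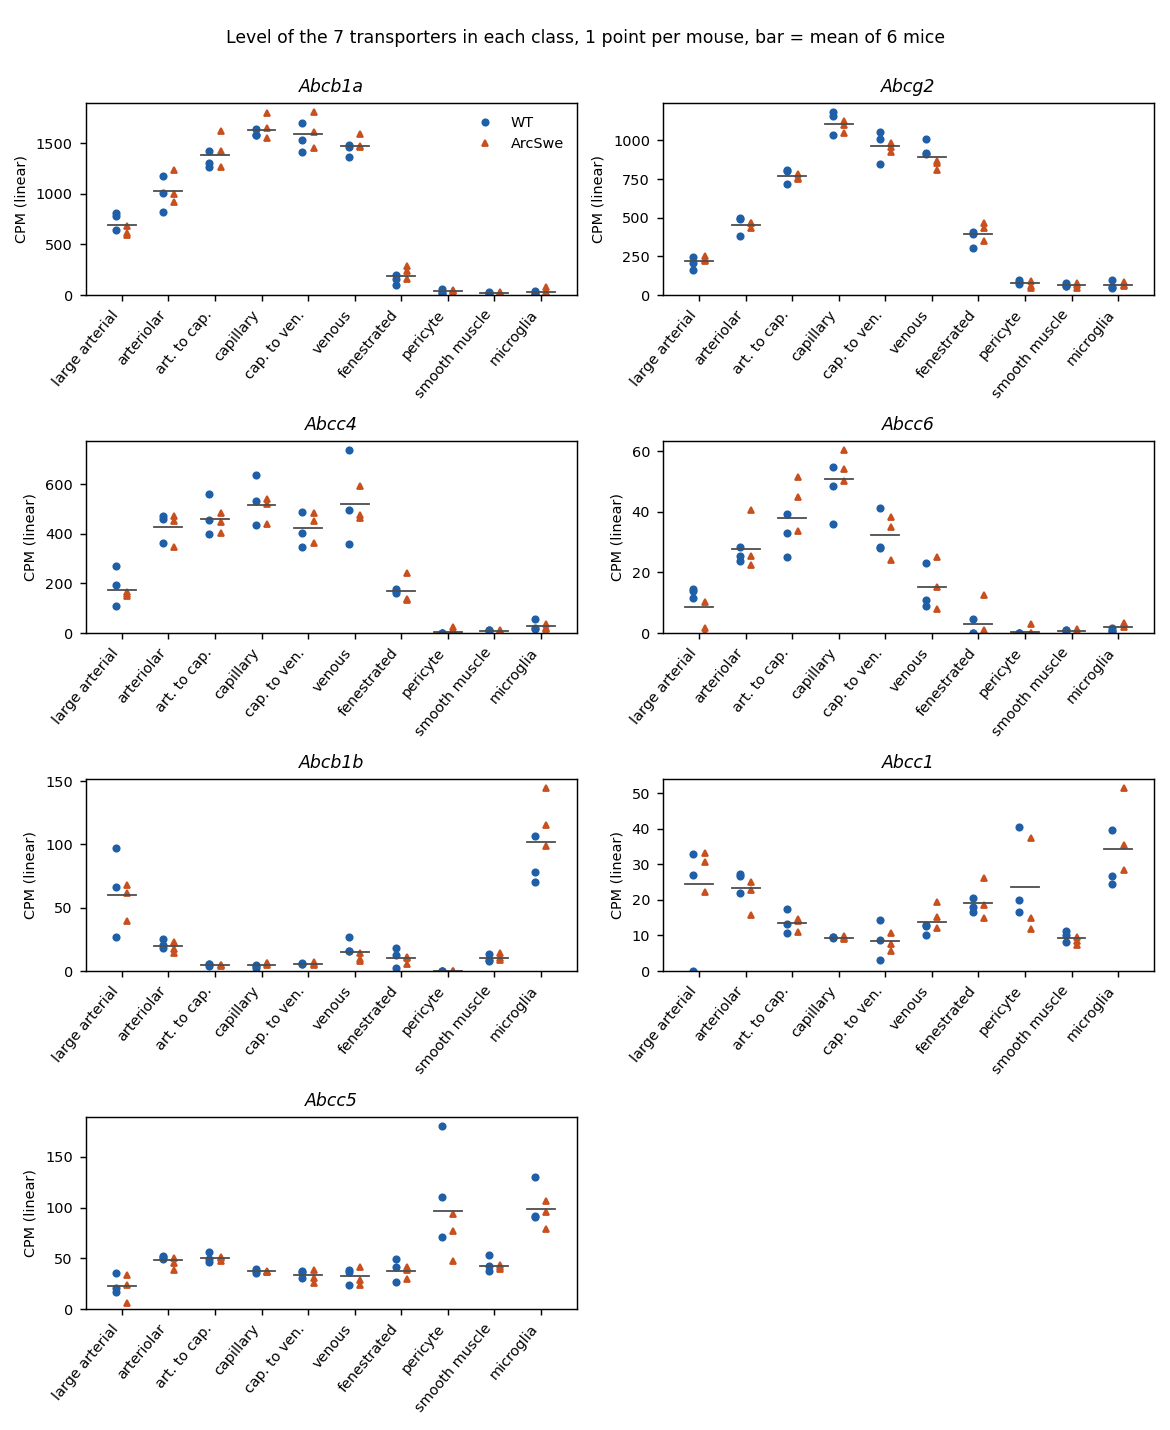
Level of each transporter (CPM, linear axis from 0) in the 10 classes, with 1 point per mouse (circles WT, triangles ArcSwe) and a bar at the mean of 6 mice. Abcb1a, Abcg2 and Abcc6 are highest in capillary cells, while Abcb1b and Abcc5 are highest in microglia. Abcc4 has similar means in venous (521 CPM) and capillary cells (518 CPM), which are its highest.

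Abcb1a, the main P-glycoprotein gene of brain endothelium, stood at 1583, 1638 and 1575 CPM in capillary cells of the 3 WT mice and at 1653, 1801 and 1546 CPM in those of the 3 ArcSwe mice. In large arterial cells the same mice gave 807, 780 and 646 CPM (WT) and 597, 686 and 612 CPM (ArcSwe). Every mouse was higher in capillaries and the values did not overlap, while the WT and ArcSwe values overlapped in capillaries. The fitted difference was 1.17 ± 0.08 (log2, SE, adjusted p = 4.3e-15), a 2.25-fold higher level. Arteriolar cells lay between, at 1027 ± 153 CPM (SD, n = 6), and capillaries exceeded them by 0.63 ± 0.05 (adjusted p = 5.8e-10). Venous cells held 1472 ± 73.5 CPM. Capillaries were higher in 6 of 6 mice, yet the fitted difference of 0.10 (95% interval -0.02 to 0.21) did not pass the threshold (adjusted p = 0.195). It passed when low-count genes were not filtered out (0.16, adjusted p = 0.0225).

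Abcg2, whose product shares many substrates with P-glycoprotein, had a larger fold difference to large arteries. Capillary cells held 1156, 1184 and 1037 CPM in WT and 1122, 1048 and 1102 CPM in ArcSwe mice. Large arterial cells held 248, 161 and 209 CPM in WT and 222, 251 and 224 CPM in ArcSwe mice. No large arterial value came near a capillary one, and the capillary level was 4.69-fold higher (log2 2.23 ± 0.09, SE, adjusted p = 7.3e-22). Against arteriolar cells (456 ± 41.7 CPM, SD, n = 6) the difference was 1.24 ± 0.04 (adjusted p = 4.3e-16). Against venous cells (895 ± 69.5 CPM) it was 0.26 ± 0.06 (adjusted p = 6.3e-04), with capillaries higher in 6 of 6 mice. In the 3 WT mice alone the venous difference was 0.17 and did not pass (adjusted p = 0.191).

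Abcc4, an exporter of cyclic nucleotides and nucleoside analogues, was nearly level from arterioles to veins and dropped in large arteries. Its capillary level was 436, 533 and 637 CPM in WT and 441, 523 and 541 CPM in ArcSwe mice. Large arterial cells held 108, 195 and 272 CPM in WT and 150, 156 and 166 CPM in ArcSwe mice. The lowest capillary value exceeded the highest large arterial one, and the difference was 1.51 ± 0.09 (log2, SE, adjusted p = 1.6e-16). Against arteriolar cells the capillary excess was small (0.22 ± 0.05, adjusted p = 3.0e-04). Against venous cells, 3 of 6 mice were higher in each class and the difference was -0.06 (95% interval -0.19 to 0.08, adjusted p = 0.538).

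Abcc6 was captured less often, with 3758 UMIs over 23854 barrier cells, and was near 0 outside them. In capillaries it held 35.9, 48.6 and 54.9 CPM in WT and 50.3, 60.3 and 54.1 CPM in ArcSwe mice. In venous cells it held 8.8, 10.7 and 22.9 CPM in WT and 15.2, 8.0 and 25.1 CPM in ArcSwe mice. The ranges did not overlap. Capillaries exceeded venous cells by 1.51 ± 0.15 (log2, SE, adjusted p = 3.5e-10), arteriolar cells by 0.77 ± 0.10 (adjusted p = 1.2e-06) and large arterial cells by 2.41 ± 0.27 (adjusted p = 1.8e-09).

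Abcb1b ran the other way. Capillary cells held 2.6, 4.6 and 4.1 CPM in WT and 6.3, 4.9 and 6.6 CPM in ArcSwe mice, against 27.1, 97.5 and 66.0 CPM (WT) and 67.7, 61.3 and 39.3 CPM (ArcSwe) in large arterial cells. Every large arterial value exceeded every capillary value, although the former rested on only 135 UMIs in all. Large arterial cells were 11.9-fold higher (log2 -3.58 ± 0.24 as capillary minus large arterial, SE, adjusted p = 1.5e-15). Arteriolar cells were 4.16-fold higher than capillaries (-2.06 ± 0.18, adjusted p = 1.6e-09) and venous cells 3.10-fold higher (-1.63 ± 0.28, adjusted p = 9.5e-06). In the ArcSwe mice alone the venous difference was -0.90 and did not pass (adjusted p = 0.0545). Capillaries averaged 4.84 CPM and microglia 102 CPM, and the part of free microglial transcripts in the capillary level was not tested. Of the UMIs of both P-glycoprotein genes, Abcb1b gave 0.166% to 0.423% per mouse in capillary cells, 0.501% to 1.78% in venous, 1.12% to 2.46% in arteriolar and 3.25% to 11.1% in large arterial cells.

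**Figure D2:**
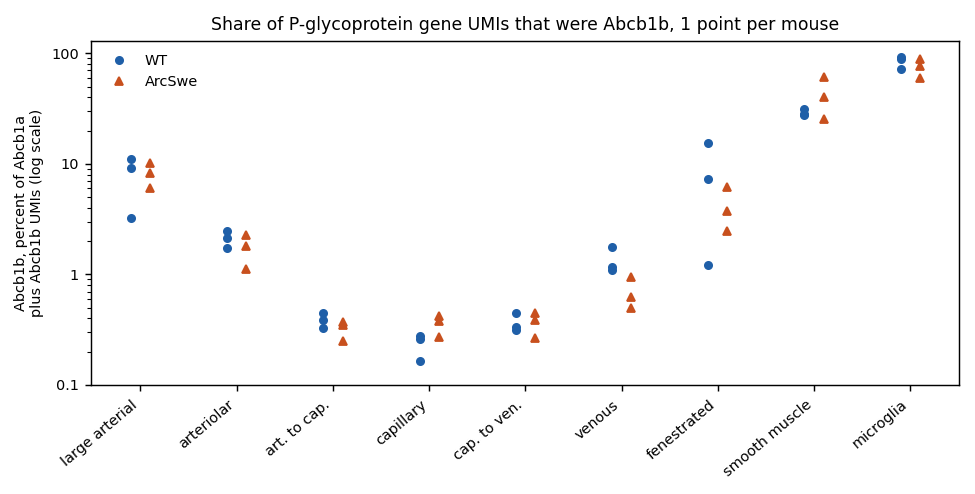
Share of Abcb1a plus Abcb1b UMIs that were Abcb1b (percent, log scale) in each class except pericytes, where no Abcb1b UMI was found, with 1 point per mouse (circles WT, triangles ArcSwe). The share was below 0.5% in capillary cells of all 6 mice and at least 60.03% in microglia.

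Abcc1, an exporter of glutathione conjugates, followed Abcb1b at low counts. Its capillary level was 8.9 to 9.8 CPM over the 6 mice, and its arteriolar level 15.8 to 27.2 CPM. The capillary-minus-arteriolar difference was -1.40 ± 0.13 (log2, SE, adjusted p = 3.3e-09). Large arterial cells were higher than capillaries in 5 of 6 mice, with 0 UMIs in WT replicate 2 (-1.65 ± 0.27, adjusted p = 2.6e-06). Venous cells were higher by a smaller amount (-0.68 ± 0.22, adjusted p = 0.0136), and this call was lost without ArcSwe replicate 1 (-0.50, adjusted p = 0.149) or ArcSwe replicate 3 (-0.66, adjusted p = 0.0501). Abcc5, an exporter of cyclic nucleotides, was higher in arteriolar cells (47.9 ± 5.1 CPM, SD, n = 6) than in capillary cells (37.3 ± 1.1 CPM), by a capillary-minus-arteriolar difference of -0.41 ± 0.08 (adjusted p = 1.7e-04). In large arterial cells it was lower than in capillaries in 6 of 6 mice, but the difference of 0.46 (95% interval 0.05 to 0.86) did not pass (adjusted p = 0.0623). It passed without WT replicate 3 (0.61, adjusted p = 0.0228) or without ArcSwe replicate 1 (0.62, adjusted p = 0.0326). The capillary-venous difference of Abcc5 was 0.09 (interval -0.18 to 0.36, adjusted p = 0.645).

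Neighbours in the order of classes were compared by the exact sign-flip permutation test over 6 mice, which cannot give a p under 0.03125 (adjusted over 63 neighbour pairs, 0.104). For 19 of the 63 pairs all 6 mice lay in 1 direction. For Abcb1a these were the steps from arteriolar to capillary down to arteriolar, large arterial, fenestrated and pericyte cells, while the capillary, capillary to venous, venous and arteriolar to capillary levels (1633, 1585, 1472 and 1383 CPM) did not step in 1 direction in all mice. The lowest Abcb1a levels, in pericytes, microglia and smooth muscle cells (36.8, 30.7 and 21.2 CPM), were not ordered in 1 direction either. For Abcg2 the steps from capillary to capillary to venous and from venous to arteriolar to capillary cells, and then to arteriolar cells, were seen in 6 of 6 mice.

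Fenestrated endothelial cells, which line vessels of the choroid plexus and circumventricular organs and lack a tight barrier, held less of most barrier transporters. They were identified by Plvap and Esm1, and their Cldn5 level was 0.878% to 11.8% of that of barrier cells of the same mouse, while Flt1 stood at 99.9% to 122% and Cdh5 at 127% to 158%. Of the 7 transporters, 5 differed from barrier cells (41.7% of all tested genes did), 4 of them higher in barrier cells (20% of all genes). Abcb1a was 193, 98.9 and 162 CPM in fenestrated cells of WT and 232, 161 and 282 CPM in those of ArcSwe mice, against 1322 to 1648 CPM in barrier cells. Each fenestrated value was 6.65% to 21.0% of the barrier value of its mouse. Barrier cells were 7.70-fold higher (log2 2.94 ± 0.14, SE, adjusted p = 1.1e-12).

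The fold differences of Abcg2 and Abcc4 were smaller. Abcg2 was 405, 304 and 397 CPM in fenestrated cells of WT and 465, 352 and 432 CPM in those of ArcSwe mice, and barrier cells (872 ± 40.5 CPM, SD, n = 6) were 2.20-fold higher (1.13 ± 0.08, SE, adjusted p = 7.6e-10). Abcc4 was 179, 161 and 172 CPM in WT and 136, 134 and 244 CPM in ArcSwe mice, and barrier cells (472 ± 68.3 CPM) were 2.74-fold higher (1.45 ± 0.10, adjusted p = 1.6e-10). Abcc6 was at 0 UMIs in fenestrated cells of 3 of 6 mice and at most 12.4 CPM in the others, and barrier cells were 12.0-fold higher (3.58 ± 0.36, adjusted p = 5.8e-08). Abcc1 was higher in fenestrated cells in 6 of 6 mice (-0.57 ± 0.18 as barrier minus fenestrated, adjusted p = 0.0156), a call lost without ArcSwe replicate 3 (-0.43, adjusted p = 0.109) and without the low-count filter (-0.45, adjusted p = 0.0927). The differences of Abcb1b (-0.23 ± 0.28, adjusted p = 0.557) and Abcc5 (0.14 ± 0.13, adjusted p = 0.450) did not pass.

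Mural cells held little of the barrier transporters. Barrier and smooth muscle cells differed in 7 of 7 transporters, where 76.4% of all tested genes differed. Abcb1a was 19.2, 23.0 and 30.1 CPM in smooth muscle cells of WT and 20.6, 5.4 and 29.1 CPM in those of ArcSwe mice, so that barrier cells were 55.2-fold higher (log2 5.79 ± 0.16, SE, adjusted p = 7.1e-13). Abcc4 and Abcc6 were 46.1-fold and 51.4-fold higher in barrier cells. Abcg2 was 12.0-fold higher (3.59 ± 0.10, adjusted p = 6.3e-13). The remaining 3 differences were small. Abcb1b was lower in barrier cells by -0.46 ± 0.13 (adjusted p = 5.5e-03), Abcc5 by -0.21 ± 0.06 (adjusted p = 9.4e-03, with 3 of 6 mice in each direction on the CPM scale), and Abcc1 was higher by 0.34 ± 0.13 (adjusted p = 0.0260). The Abcc1 call was lost with DESeq2 (0.36, adjusted p = 0.0548) and without ArcSwe replicate 1, ArcSwe replicate 3 or WT replicate 2 (0.26 to 0.34).

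Pericytes gave 804351 UMIs over 6 mice, so that 3 UMIs correspond to 3.73 CPM over the pooled pericytes. In single mice 3 UMIs correspond to 8.90 CPM (ArcSwe replicate 3) up to 60.1 CPM (WT replicate 2). Barrier cells and pericytes differed in 6 of 7 transporters (39.1% of all tested genes), and the median log2 difference of all tested genes was 0.15. Barrier cells were higher in Abcb1a (40.1-fold, log2 5.33 ± 0.23, SE), Abcg2 (13.7-fold, 3.77 ± 0.20), Abcc4 (73.5-fold, 6.20 ± 0.32, with 6 UMIs in pericytes) and Abcc6 (36.5-fold, 5.19 ± 0.72, with 1 UMI in pericytes). Abcb1b had 0 UMIs in pericytes of all 6 mice, so barrier cells (8.5 ± 1.6 CPM) were at least 2.29-fold higher than 3 UMIs over the group would give. Abcc5 was higher in pericytes, at 70.8, 180 and 111 CPM in WT and 47.4, 93.5 and 77.1 CPM in ArcSwe mice. These values rested on only 7, 9 and 20 UMIs in WT and 4, 5 and 26 UMIs in ArcSwe mice. It was above the barrier value of the same mouse in 6 of 6 mice (-0.93 ± 0.23 as barrier minus pericyte, adjusted p = 1.6e-04), a difference of -0.65 that did not pass in the ArcSwe mice alone (adjusted p = 0.166). Against smooth muscle cells, pericytes were higher in Abcc5 in 6 of 6 mice (0.83 ± 0.23, adjusted p = 1.6e-03), the 1 called transporter of 3 tested (38.4% of all tested genes). The Abcc1 difference between barrier cells and pericytes was -0.46 ± 0.44 (adjusted p = 0.438).

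Microglia, the resident macrophages of the brain, held the other P-glycoprotein gene. Barrier cells and microglia differed in 7 of 7 transporters (75.9% of all tested genes, with a median log2 difference of all genes of 0.11). Abcb1b was 70.1, 77.8 and 106 CPM in microglia of WT and 98.9, 144 and 115 CPM in those of ArcSwe mice, whereas barrier cells held 6.3 to 10.3 CPM. The ranges were far apart, and microglia were 12.9-fold higher (log2 -3.69 ± 0.17 as barrier minus microglia, SE, adjusted p = 7.9e-08). Of the UMIs of both P-glycoprotein genes in microglia, Abcb1b gave 92.5%, 89.0% and 71.6% in WT and 76.5%, 88.0% and 60.03% in ArcSwe mice. Abcc5 was 90.7, 91.4 and 130 CPM in WT and 78.7, 107 and 95.8 CPM in ArcSwe microglia, 2.61-fold above barrier cells (-1.38 ± 0.11, adjusted p = 1.3e-06). Abcc1 was 24.5 to 51.4 CPM, 2.75-fold above barrier cells (-1.46 ± 0.16, adjusted p = 2.1e-05).

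Abcb1a in microglia was 5.7, 9.6 and 42.2 CPM in WT and 30.3, 19.8 and 76.6 CPM in ArcSwe mice. As a percent of the barrier level of the same mouse this was 0.413, 0.646 and 3.20 (WT) and 2.09, 1.20 and 5.69 (ArcSwe). The tight junction gene Cldn5, a defining endothelial marker, stood at 0.449, 0.490 and 2.59 (WT) and 1.74, 1.00 and 5.52 percent (ArcSwe), and the ratio of both percentages was 0.920 to 1.32. Abcb1a and Cldn5 thus stood at similar percentages in each mouse, low in WT replicates 1 and 2 and highest in ArcSwe replicate 3. Over the 5 endothelial markers (Cldn5, Flt1, Ly6c1, Itm2a and Cdh5) the percentages in microglia ranged from 0.311 to 6.56.

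Abcg2 was above those markers. In microglia it held 47.2, 49.3 and 95.5 CPM in WT and 65.0, 55.3 and 85.7 CPM in ArcSwe mice, which was 5.21% to 11.9% of the barrier level and above all 5 markers in 6 of 6 mice. The same held in smooth muscle cells (5.19% to 9.85%, 6 of 6 mice) and in pericytes (5.44% to 10.9%, 6 of 6 mice). Abcc4 was above all 5 markers in microglia of 6 of 6 mice (3.58% to 9.64%) and in smooth muscle cells of 4 of 6, and Abcb1a in 2 of 6 mice in each of pericytes, smooth muscle cells and microglia. Barrier cells were still 12.1-fold higher than microglia in Abcg2, 16.5-fold in Abcc4 and 19.5-fold in Abcc6.

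**Figure D3:**
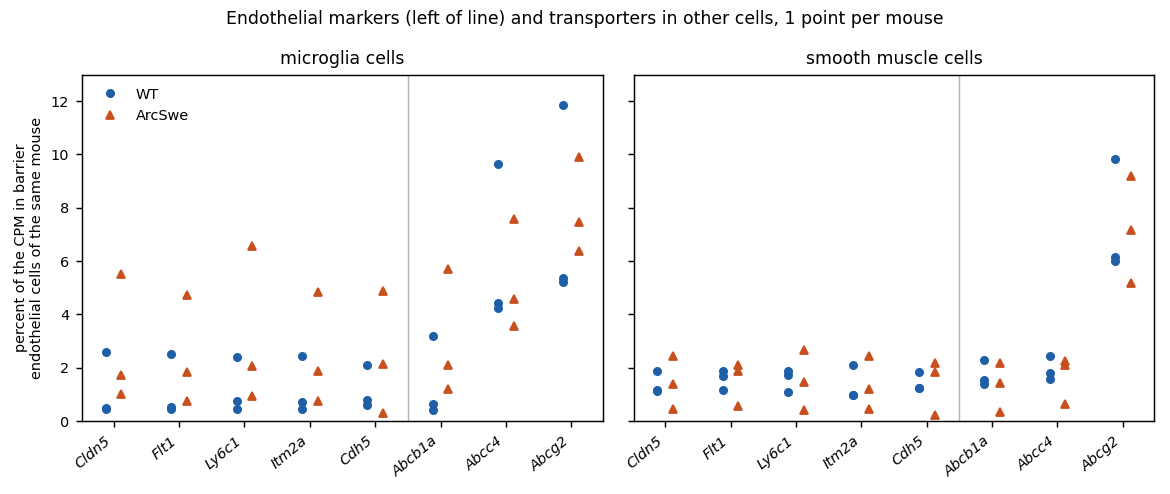
Level of 5 endothelial markers (left of the line) and of transporters (right) in microglia and smooth muscle cells, as a percent of the CPM in barrier endothelial cells of the same mouse, with 1 point per mouse (circles WT, triangles ArcSwe). Abcg2 lies above the markers of its mouse in 6 of 6 mice in both classes, while Abcb1a does so in 2 of 6 mice in each class.

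The microglia of the mice came from different clusters. Most WT replicate 1 and 2 cells lay in a cluster high in Cx3cr1 and P2ry12 (Abcb1b 68.7 and 74.2 CPM), most WT replicate 3 cells in another (107 CPM), and most ArcSwe cells in yet another (112, 106 and 112 CPM). WT cells of that last cluster held 70.9, 102 and 189 CPM, so the genotypes overlapped within it. The clusters that held most WT replicate 3 and most ArcSwe cells had low shares of ribosomal UMIs. A cluster high in Apoe, Clec7a and Cst7, and led by Cxcl10, Tnf and Ccl4, held 128, 6 and 358 cells of the 3 ArcSwe mice (Abcb1b 122, 419 and 122 CPM) and 5, 3 and 16 of the WT mice (127 CPM in replicate 3, the others too few to sum). Abcb1b was thus captured in each of these clusters, and the median UMIs per microglial cell of a mouse ranged from 1083 to 5871.

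The share of cells with a UMI was taken after thinning each cell to 1000 UMIs, because it depends on depth (478 barrier cells and 1545 microglia below that depth were left out). Abcb1a was found in 66.1% to 72.9% of barrier cells per mouse, in 71.9% to 78.2% of capillary cells and in 39.5% to 63.6% of large arterial cells. In fenestrated cells the share was 9.92% to 18.1%. In microglia Abcb1a was found in 0.421% to 5.56% of cells, beside 1.92% to 19.4% for Cldn5, whose barrier level is higher. No expression was read from that share. Abcg2 was found in 49.3% to 54.1% of barrier cells and Abcc4 in 28.6% to 38.2%. Abcb1b was found in 5.20% to 10.5% of microglia but 0.397% to 0.823% of barrier cells, and Abcc5 in 7.18% to 11.3% of microglia but 3.23% to 4.41% of barrier cells. Without thinning, 92.0% to 98.2% of barrier cells had an Abcb1a UMI.

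Over the mean levels of 10 classes, the genes most like 6 of the transporters were named by Pearson's r among 11689 genes. These classes share libraries and free transcripts, and the values describe the pattern only. Abcb1a was closest to Pet100 (r = 0.997) and Abcg2 to Itm2a (r = 0.991). Abcc6 was closest to Notum (r = 0.996), with the lipid transporter Mfsd2a, a capillary marker, at r = 0.985. Abcb1b was closest to Pon3 (r = 0.978), Abcc5 to Lpgat1 (r = 0.969) and Abcc1 to Marcks (r = 0.914). Among the transporters themselves, Abcb1a had r = 0.948 with Abcg2, 0.924 with Abcc4 and 0.908 with Abcc6, but -0.04 with its neighbour Abcb1b.

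The genotype comparison asked whether ArcSwe mice differed from WT mice in these genes. In barrier cells 0 of 7 transporters were called (0% of 13484 tested genes, with 590 at an unadjusted p under 0.05, and 13 genes called by DESeq2). Abcb1a was 1386, 1487 and 1322 CPM in WT and 1453, 1648 and 1345 CPM in ArcSwe barrier cells. The groups overlapped, and the ArcSwe-minus-WT difference was 0.09 (log2, 95% interval -0.22 to 0.41, adjusted p = 0.993). Abcg2 was 906, 921 and 804 CPM in WT and 871, 867 and 865 CPM in ArcSwe mice, a difference of -0.01 (interval -0.28 to 0.27). Abcc4 was 394, 479 and 579 CPM in WT and 403, 476 and 504 CPM in ArcSwe mice (-0.05, interval -0.38 to 0.28).

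Abcc6 was 28.1, 36.3 and 42.4 CPM in WT and 37.3, 47.0 and 45.4 CPM in ArcSwe barrier cells. The groups overlapped and the difference was 0.30 (interval -0.04 to 0.64, unadjusted p = 0.0798, adjusted p = 0.993 in edgeR's test). Abcb1b (0.10, interval -0.39 to 0.60), Abcc1 (-0.05, interval -0.35 to 0.24) and Abcc5 (-0.09, interval -0.28 to 0.10) also had intervals that included 0. For Abcb1a and Abcg2 the barrier intervals thus left out changes larger than 0.41 on the log2 scale in either direction, while for Abcb1b and Abcc6 they reached 0.60 and 0.64.

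Over all classes 0 of 69 tested combinations of transporter and class were called, of 84 possible, and the smallest adjusted p was 0.399. In pericytes 0 of 7 passed the low-count filter. Without that filter 0 transporters were called there, and Abcc5 gave -0.58 (interval -1.43 to 0.27, edgeR's adjusted p = 0.863). All-gene calls were 0% in capillary, venous and smooth muscle cells, 0.0154% in large arterial, 0.0099% in arteriolar, 0.0125% in fenestrated cells and 0.157% in microglia (0.147% higher and 0.00921% lower). An unadjusted p under 0.05 was reached in 3 of the 69 combinations. Of all tested genes, 500 of 11768 reached it in capillary, 1136 of 10855 in microglial and 334 of 8005 in fenestrated cells. Abcb1b in capillary cells gave 0.68 (interval 0.03 to 1.34, edgeR's adjusted p = 0.997, 0.0431 unadjusted), and the part of free microglial transcripts in it was not tested. Abcb1b in microglia gave 0.56 (interval 0.09 to 1.03, edgeR's adjusted p = 0.399, 0.0248 unadjusted), with WT replicate 3 above ArcSwe replicate 1. Abcb1a in fenestrated cells gave 0.62 (interval 0.08 to 1.16, edgeR's adjusted p = 0.999, 0.0270 unadjusted). Cldn5 in the same cells was 278, 44.6 and 275 CPM in WT and 524, 61.4 and 774 CPM in ArcSwe mice, a difference of 1.25. The other endothelial markers moved less there (Flt1 0.006, Cdh5 0.06, Ly6c1 0.28 and Itm2a 0.30), and none of the markers was called. The part of free barrier transcripts in the Abcb1a difference was not tested.

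In microglia Abcb1a had a difference of 1.49 (interval -0.11 to 3.08, adjusted p = 0.506 in edgeR's test). It was called without WT replicate 3 (2.65, adjusted p = 0.0198) and without the microglial clusters low in ribosomal reads (2.80, adjusted p = 0.0243). The latter fit left ArcSwe replicate 2 with only 7, 6 and 2 cells in the remaining clusters. Of the cluster high in Cx3cr1 and P2ry12 it kept 715, 574 and 54 WT cells and 164, 7 and 35 ArcSwe cells. Of the cluster high in Apoe, Clec7a and Cst7 it kept 5, 3 and 16 WT cells and 128, 6 and 358 ArcSwe cells. In the fit of all 6 mice, Cldn5 differed by 1.70 ± 0.76 (SE) and the markers Flt1, Ly6c1, Itm2a and Cdh5 by 1.45 to 1.79. None of these markers was called in that fit, and neither was Abcb1a. Marker differences in the fits that called Abcb1a are not given here. The part of free endothelial transcripts in the Abcb1a difference was not tested.

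**Figure D4:**
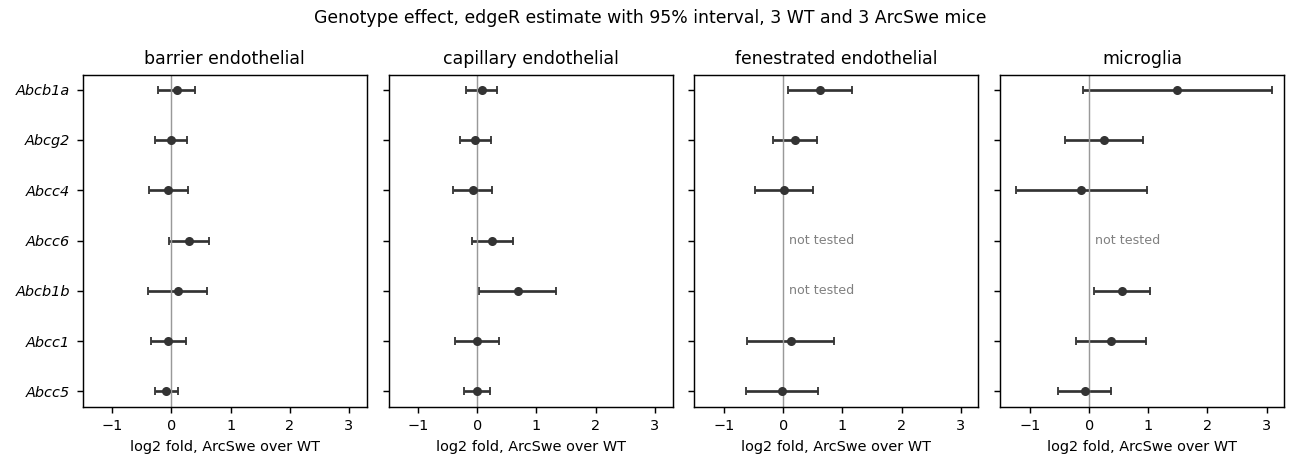
ArcSwe-minus-WT difference (log2, with 95% interval of edgeR's quasi-likelihood fit) of each tested transporter in barrier, capillary, fenestrated endothelial and microglial cells, 3 mice per group. The other classes are not drawn. None of the combinations drawn passed an adjusted p of 0.05, and the barrier interval of Abcb1a ran from -0.22 to 0.41.

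Whether genotype differences varied between classes was tested by interaction terms, and 0 of 28 were called (0.00873% of all genes for capillary against arteriolar, 0.0359% for capillary against venous, 0.00809% for barrier against pericyte and 0% for barrier against microglial cells, where 1327 genes had an unadjusted p under 0.05). Abcb1b in capillary against venous cells had the smallest unadjusted p of the 28. Its venous level was 16.1, 26.9 and 16.0 CPM in WT and 9.3, 8.0 and 14.2 CPM in ArcSwe mice, so that the groups did not overlap, and they did not overlap in capillaries in the opposite order (4.6 CPM at most in WT, 4.9 CPM at least in ArcSwe). These values rested on 72 venous and 192 capillary UMIs. The difference of differences was 1.5 ± 0.47 (SE, unadjusted p = 0.00316, adjusted p = 0.664 in edgeR's test). For shares of cells, 3 against 3 mice allow no exact permutation p below 0.1. That value was reached in 10 of 84 tests, which gives an adjusted p of 0.84 over them (exact permutation test). Of these, 7 were Abcc5, with a lower share in ArcSwe mice in barrier cells (-0.63 percentage points), microglia (-2.16) and other, partly nested classes. The CPM of Abcc5 differed less, by -0.09 and -0.08 (log2) in barrier cells and microglia. The thinning left out 471 of 3272 WT but 1074 of 3314 ArcSwe microglia, so the microglial shares compare differently selected cells. The remaining 3 were Abcb1b in barrier cells (0.31 points) and capillaries (0.25) and Abcc6 in microglia (0.32). The mean Abcb1b level in barrier cells was 8.33 CPM in WT and 8.76 CPM in ArcSwe mice.

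Other genes of efflux and uptake were followed as lists. Against microglia, 40.4% of all tested genes were called higher and 35.6% lower in barrier cells. Of the lists, barrier cells were higher in 4 and lower in 2 of 6 tested uptake carriers. Slco1a4, Slco1c1 and Slc22a8, carriers of organic anions and thyroid hormone, were higher by 5.74, 6.06 and 5.30 (log2), and Slco2b1 and Slc29a1 lower by -2.05 and -1.61. Of 5 tested other drug or conjugate exporters, 0 were higher and 3 lower in barrier cells (Abcc3 -6.68, Abcb4 -5.39 and Abcc10 -0.59). Of 6 lipid and sterol transporters, 2 were higher (Abca4 4.46, Abca5 3.03) and 3 lower (Abca9 -6.92, Abca1 -3.07 and the cholesterol exporter Abcg1 -2.77). Of 15 organelle and antigen peptide ABC proteins 5 were higher and 4 lower, of 6 membrane partners 4 and 1, and of 13 regulators 4 and 8, with the aryl hydrocarbon receptor Ahr higher in barrier cells by 3.86 and Nfkb1 lower by -2.62.

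Against fenestrated cells, where 20% of all tested genes were called higher and 21.7% lower in barrier cells, the same 3 carriers were higher in barrier cells (Slco1a4 3.82, Slco1c1 4.10 and Slc22a8 3.76, log2), 2 of 6 were lower, and Ahr was lower by -3.33. The other lists split 1 higher and 0 lower of 3 exporters, 2 and 2 of 6 lipid transporters, 2 and 3 of 14 organelle proteins, 2 and 2 of 6 partners, and 5 and 5 of 13 regulators. Against pericytes, where 24.4% of all tested genes were called higher and 14.7% lower, the carriers split 4 and 0 of 6, exporters 1 and 0 of 3, lipid transporters 1 and 2 of 7, organelle proteins 2 and 2 of 15, partners 4 and 1 of 6 and regulators 8 and 1 of 13.

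By genotype, 0 tested genes of these 6 lists were called in barrier cells or microglia. In pericytes 4 partners, 1 carrier and 6 regulators were tested with 0 called, and 0 genes of the other lists passed the low-count filter. The smallest unadjusted p of each list in barrier cells belonged to Abcc10 (-0.25), Abca5 (-0.26), Tap1 (0.39), Cav1 (0.19), Rxra (0.28) and Slc22a5 (0.25), all as ArcSwe-minus-WT log2 differences. They were followed by Abcc3 (1.10) and Abcb4 (0.50), Abcg1 (0.29) and Abca1 (0.18), Tap2 (0.26) and Abcb8 (0.64), Rdx (-0.16) and Ezr (-0.15), Nfkb1 (0.15) and Keap1 (-0.08), and Slco1c1 (0.12) and Slco1a5 (0.33). Of these genes, Abcc10, Abcc3, Abcb4, Abcg1, Abca1 and Nfkb1 were lower in barrier cells than in microglia. The part of free microglial transcripts in their barrier values was not tested.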

How the data were processed

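The deposited matrices held raw UMI counts, made by the authors with Cell Ranger 7.0.0 on mm10 with Clec7a and human NOTCH3 added. Whether intronic reads were counted was not given in the sources used here. Cells with 500 to 4500 genes and under 10% mitochondrial UMIs were kept, clustered (leidenalg 0.10.2, Leiden resolution 1, without any of the transporters) and named by markers. Scrublet doublet scores were computed with scanpy 1.11.5. Clusters with markers of several types were left out. The members and gene lists were chosen with earlier results of these data known. All members are named in every class. Of the other lists, genes are named by the smallest p for genotype in barrier cells. Those given for differences between classes were chosen after their values were seen.

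Counts were summed per mouse and class after removal of ribosomal, mitochondrial, pseudogene and Rik genes (29442 genes left) and tested with edgeR 4.0.16 (TMM, filterByExpr, quasi-likelihood test, Benjamini-Hochberg over all genes), by genotype with 3 mice per group, or between classes with mouse as a block. DESeq2 1.42.0 and other settings were alternatives. CPM were computed from these sums. Counting error alone sets the floor of 3 UMIs. The fits were tested on simulated data. Replicate numbers were not used to pair the mice. Genes outside the list with a pattern like that of Abcc4 are not reported here.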

Additional observations from a re-analysis of the deposited data

How the results depend on the processing

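The 149 transporter values were refitted under alternative settings (normalization, DESeq2, the low-count filter, cell filters, clustering, 1 mouse left out, 1 genotype alone), which gave 2368 refitted values. Of these, 23 took a call away, 10 added one and 0 reversed a called value. All 43 called values, each a difference between classes, kept their direction under these settings, and 33 kept their call. By genotype in microglia, 1 transporter (Abcb1a) instead of 0 was called without the low-ribosomal clusters, and 0 to 1 when 1 mouse was left out. All genes called there numbered 17, but 34 with RLE normalization, 174 with DESeq2, 247 without the filter, 444 without the low-ribosomal clusters and 2 to 823 without 1 mouse. In WT mice alone, 2 instead of 4 transporters differed between capillary and venous cells and 4 instead of 7 between barrier and smooth muscle cells. Between pericytes and smooth muscle cells, 2 instead of 1 were called without the filter and at clustering resolution 2, and 0 in ArcSwe mice alone. The cause was not tested.

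With the replicate number as a block, 0 transporters were called by genotype in any class, as without it, and 34 genes in microglia. The labels do not say that a number marks a shared batch, so the numbers were not taken as pairs. In barrier cells the correlation of same-numbered deviations was 0.0828, 0.162 and 0.363, and that of differently numbered ones ran from -0.323 to 0.269. In smooth muscle cells these were 0.072, 0.1195 and 0.2955 against -0.206 to 0.0963. In microglia they were 0.3362, -0.0893 and 0.174 against -0.367 to 0.2945. Whether same-numbered mice shared a batch was not tested further. The planned removal of Scrublet doublets was not run, since it marked 103 of 44112 cells (0.234%). Removing the 5% of cells with the highest scores, chosen after seeing the data, took its place. Shares rose with depth, for Abcb1a in barrier cells from a mean of 69.3% at 1000 UMIs to 88.6% at 2000. Summed UMIs limit values in pericytes and large arterial cells, shallow cells limit shares in microglia, and values for Abcb1b and Abcc1 rest on few UMIs.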
